A study of Mus musculus with 2 samples.

Results

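Cyclic AMP signalling was described through 39 genes that encode the adenylyl cyclases, phosphodiesterases, protein kinase A subunits, Epac proteins, CREB and CRTC factors, and G-protein alpha subunits of mainly the Gi/o family. The members were the gene probes whose name in the array files was 1 of these 39 symbols. They had 75 of the 55678 gene probes with a value on both arrays, and the whole series held 34796 gene names. RNA came from beta cells of high-fat-fed C57BL/6J mice at 6 months of age. The control array carried Cy3-labelled RNA of the wild type (CSE-WT), and the other array RNA of CSE knockout mice (CSE-KO). The deleted enzyme, cystathionine gamma-lyase, produces hydrogen sulfide. The labels do not say how the allele was made, how many animals were pooled or how the cells were isolated.

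Cyclic AMP is made from ATP by adenylyl cyclases, which Gs-coupled receptors stimulate and Gi/o-coupled receptors inhibit, and it is broken down by phosphodiesterases. It acts through protein kinase A, whose regulatory subunits hold the catalytic subunits inactive until cyclic AMP binds, and through the Epac exchange factors for Rap. In beta cells it amplifies glucose-stimulated insulin secretion, for example after incretins, and drives transcription through CREB and its CRTC coactivators. The comparison asks which of these transcripts differ with loss of CSE under a high-fat diet.

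Both arrays were of similar brightness, with a 75th percentile of gene probes of 519 intensity units for CSE-WT and 540 for CSE-KO (539.6 before rounding). A gene was measured when at least 1 of its probes had the scanner software's well-above-background flag on both arrays, which held for 22167 genes. Differences are CSE-KO minus CSE-WT in log2 units after that percentile was subtracted on each array. Each genotype had a single array, so no test could be made. A 2-fold rule (1 log2 unit) took its place, and each difference is set beside the spot SD, the technical error of a difference between 2 spots. That SD covers noise within an array and not animals or preparations, and among measured members it ran from 0.052 for bright probes to 0.51 for the dimmest. Some small areas of the slide, called patches here, differed as a whole between the arrays. They held 63 of the 196 genes at least 2-fold lower in CSE-KO and 9 of the 159 at least 2-fold higher. The beta-cell gene Ins1 and the alpha-cell gene Gcg were both among the brightest markers on both arrays, so RNA of other islet cells was present. Acinar markers were bright as well, with summed signals of 499694 units in CSE-WT and 497208 in CSE-KO. In such bulk samples fewer cells of a type and less RNA per cell cannot be told apart.

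Most cyclic AMP genes differed little between the arrays, with more small decreases than increases. Of the 39 members 38 were measured. In CSE-KO 12 were higher and 26 lower (68.4%), where 51.3% of all measured genes were lower. Their median was -0.08 log2 units against -0.01 for all measured genes. By at least 2-fold, 0 members were higher (background 0.717%) and 1, the cyclase gene Adcy3, was lower (background 0.884%). In either direction the background was 1.6%. Past 3 spot SDs, 0 members were higher (background 8.55%) and 7 were lower (background 9.35%, and 17.9% in either direction). These 7 were Adcy2, Adcy3, Pde3b, Pde8a, Prkar2b, Gnai1 and Gnai3. Without any scaling of the arrays the counts were 16 higher, 22 lower and 4 lower past 3 spot SDs. Over all measured genes 39.4% were then lower, and 5.66% lower past 3 spot SDs.

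**Figure D1:**
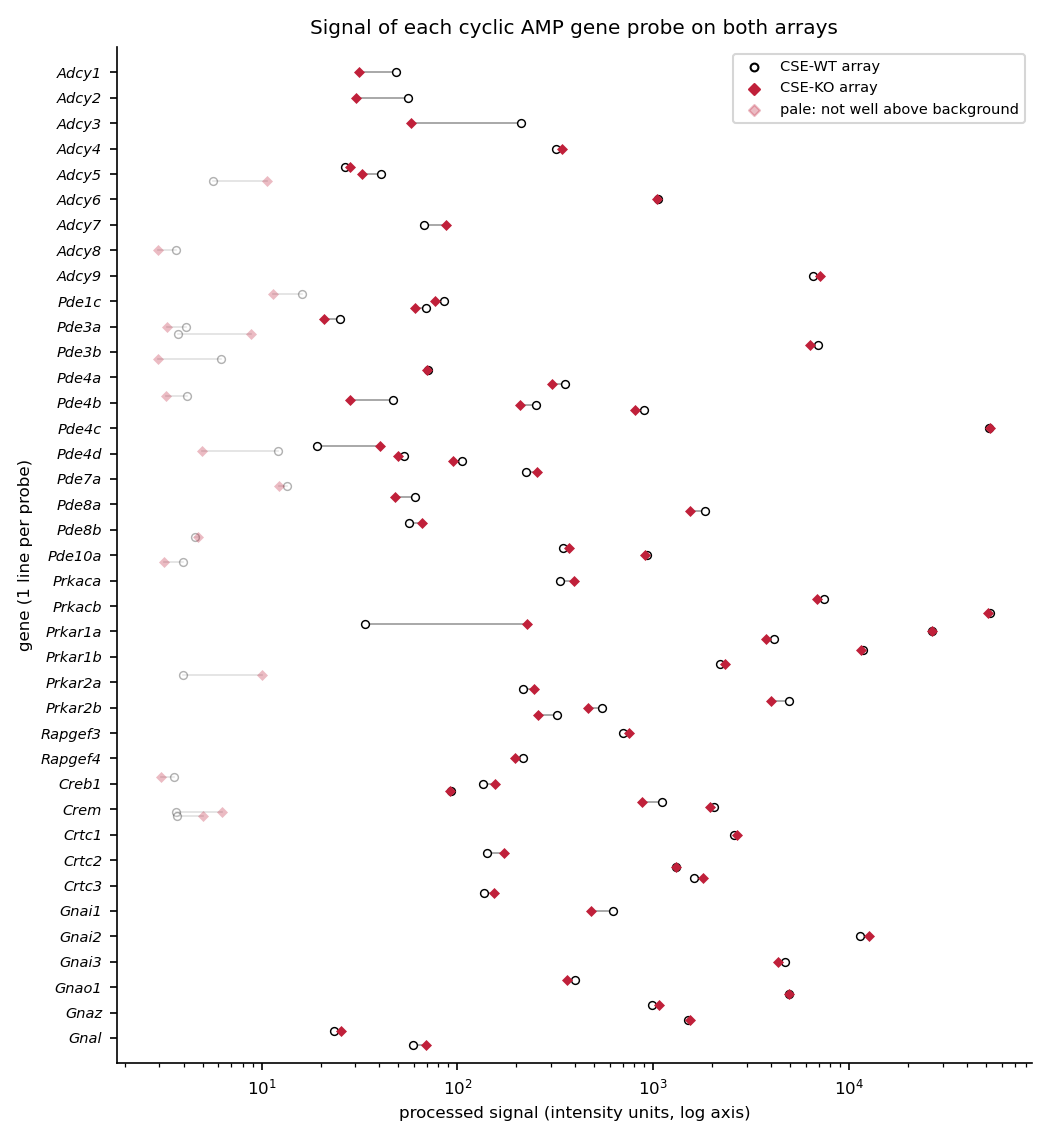
Processed signal of each cyclic AMP gene probe in intensity units on a log axis, with open circles for the CSE-WT array, red diamonds for the CSE-KO array and pale symbols for probes not well above background. Most pairs nearly coincide, and the widest gaps are the uppermost Prkar1a line (33.8 and 226 units) and Adcy3 (211 and 58.2 units).

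Probes of the same gene did not always go the same way. Over the 60 measured member probes 21 were higher and 39 lower, with several probes of 1 gene counted separately. The share of lower probes over all 30845 measured probes was not computed. At least 2-fold, 2 member probes were higher (background over probes 0.778%) and 1 was lower (background 0.953%). The 2 higher ones were single probes of Prkar1a and Pde4d, whose other measured probes were slightly lower. Of the 18 members with more than 1 measured probe, 10 had probes of 1 sign and 8 of mixed sign. The share of all genes with mixed signs was not computed. The median SD between probes of a gene was 0.096 log2 units for these 18, against 0.117 for all 6129 such genes. The root mean square was 0.44 against 0.29, and 0.15 for the members without Prkar1a and Pde4d.

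**Figure D2:**
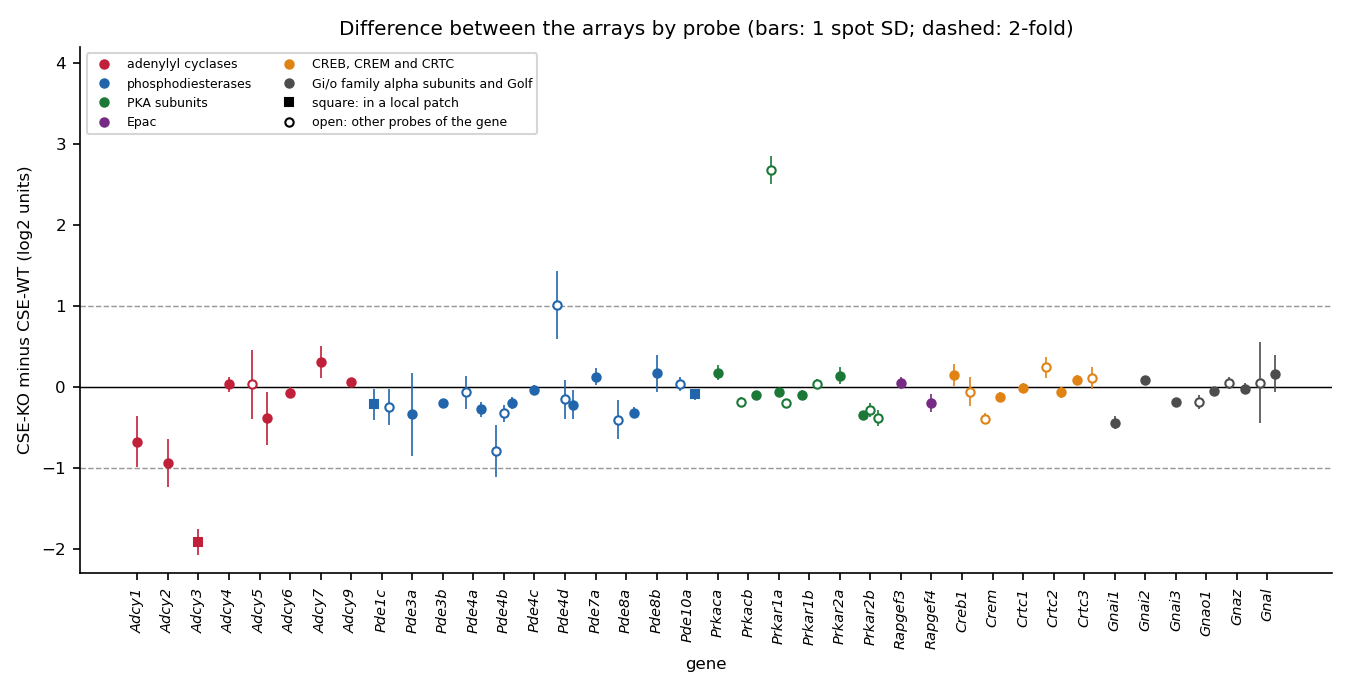
Difference CSE-KO minus CSE-WT in log2 units for each measured probe, by gene, with bars of 1 spot SD, dashed lines at 2-fold, filled symbols for the brightest probe of a gene and squares for probes in a local patch. Apart from 1 probe of Prkar1a at 2.68, 1 of Pde4d at 1.02 and Adcy3 at -1.91, every probe lies between the dashed lines.

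The group of Gi/o alpha subunits with the olfactory-type subunit Gnal was lower in 4 of 6 genes, where 51.3% of all measured genes were lower. The Gi/o subunits inhibit adenylyl cyclases when their receptors are active. Gnal, which is stimulatory, is counted in the 6 and was 1 of the 2 higher genes. Gnai1 gave 625 units in CSE-WT and 479 in CSE-KO. This difference of -0.44 (spot SD 0.08) was the largest of the group and rested on 1 probe at chr5:17771077-17771136 (mm9, minus strand). Gnai3 gave 4725 and 4315 units, a difference of -0.19 (spot SD 0.05). Gnai2 went the other way, with 11401 units in CSE-WT and 12578 in CSE-KO (0.09, spot SD 0.06). The 3 Gi genes therefore did not share a sign, though the Gnai2 value lay within 2 spot SDs of 0.

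Gnao1, the Go subunit gene abundant in neurons and endocrine cells, gave 4912 and 4940.1 units with its brighter probe (-0.05) and 398 and 365 units with its other probe (-0.18). The sign of Gnao1 turned without scaling (0.01). Gnaz, which encodes the pertussis toxin-insensitive Gz, had probes at -0.02 and 0.05, both within 1 spot SD of 0. Gnal was dim, at 59.6 and 69.5 units (0.16, spot SD 0.23) and at 23.5 and 25.4 units (0.05) with its other probe. The Gnao1, Gnaz and Gnal values thus lay within 3 spot SDs of 0.

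The adenylyl cyclases held the largest gene-level differences, all in dim transcripts. Of 9 genes 8 were measured, with 3 higher and 5 lower, where 51.3% of all measured genes were lower. Adcy3, a cyclase found in many tissues including islets, gave 211 units in CSE-WT and 58.2 in CSE-KO, which is 3.76-fold lower (-1.91, spot SD 0.16). Its probe at chr12:4211535-4211594 (mm9, plus strand) lay in a patch that was bright on the CSE-WT array. Among its 48 neighbouring spots, the 25 dim ones had a median of 41.3 units on the CSE-WT array. Of these 25, 15 exceeded 30 units there and 0 did so on the CSE-KO array. The dim neighbours thus differed in the same direction as Adcy3, and the gene had no other probe. With the normexp background model, whose offset of 50 units narrows differences between dim spots, Adcy3 was at -1.17. Without patch probes no value remained for Adcy3 and 0 members were at least 2-fold lower.

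The first 30 bases of the 60-base Adcy3 probe are shown so that its target can be found in any transcript model, in lower case because no part is marked.
Adcy3, NM_138305 probe: tgcattagccatgaaggacacgctcacaaa

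Adcy1 and Adcy2 were lower outside patches. Adcy2, a cyclase stimulated by G-protein beta-gamma subunits, gave 55.7 and 30.3 units (-0.94, spot SD 0.30), just under 2-fold. Adcy1, a calcium- and calmodulin-stimulated cyclase, gave 48.3 and 31.5 units (-0.67, spot SD 0.32). Around Adcy2 the 20 dim neighbours had medians of 4.04 and 3.84 units on the CSE-WT and CSE-KO arrays. Around Adcy1 the 26 dim neighbours had medians of 3.52 and 3.03 units. Both transcripts were lower on the CSE-KO array under each scaling and in the authors' deposited table. With the normexp background model they shrank to -0.33 for Adcy2 and -0.25 for Adcy1. The offset of 50 units in that model narrows any difference between spots this dim. Each of the 2 genes rests on 1 dim spot per array.

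The brighter cyclase probes were nearly equal on both arrays. Adcy9, the cyclase that forskolin activates poorly, gave 6529.6 units in CSE-WT and 7095 in CSE-KO (0.06, spot SD 0.05). Adcy6, which calcium inhibits, gave 1057 and 1048 units (-0.07, spot SD 0.07). Adcy4 gave 319.9 and 341 units (0.04, spot SD 0.09). Adcy5, the other calcium-inhibited cyclase, was by contrast dim. Its measured probes were at -0.39 (40.8 and 32.4 units, spot SD 0.33) and 0.03 (26.5 and 28.2 units, spot SD 0.42), both within 2 spot SDs of 0.

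Adcy7, a cyclase prominent in blood cells and macrophages, gave 67.4 and 87.0 units (0.31, spot SD 0.20). Macrophage markers were also brighter on the CSE-KO array. Of 11 measured markers 10 were higher, and their summed signal was 28602 units in CSE-WT and 38453 in CSE-KO. Their part in the Adcy7 value was not tested. Adcy8, the calcium-stimulated cyclase linked to glucose responses of beta cells, stayed too dim for the well-above-background flag, at 3.68 and 2.97 units.

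The phosphodiesterases were lower in 9 of 11 genes, where 51.3% of all measured genes were lower, with a median of -0.20, and none reached 2-fold. Of these 9, Pde4c turned to 0.02 without scaling, under quantile normalization and in the authors' deposited table, Pde4d to 0.22 with the mean of its probes, and Pde10a to 0.04 without patch probes. Pde3b, the cyclic GMP-inhibited enzyme known in beta cells and fat cells for opposing cyclic AMP, gave 6952 units in CSE-WT and 6302 in CSE-KO (-0.20, spot SD 0.05). Pde8a, a high-affinity cyclic AMP-specific enzyme, gave 1844 and 1539.8 units (-0.32, spot SD 0.06). The other Pde8a probe gave 60.9 and 47.9 units (-0.40). Its coordinates span 2077 bases for 60 bases of probe, so it crosses at least 1 intron. Both Pde8a probes were lower, and the brighter one differed by more than 3 spot SDs.

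Pde4 enzymes, the cyclic AMP-specific family inhibited by rolipram, were mostly lower. Pde4b had 3 measured probes, all lower, at 893 and 809.7 units (-0.20), 252 and 209.6 units (-0.32), and 46.8 and 28.2 units (-0.79). The gene-level value used the first, whose difference was -2.83 times its spot SD. The probe at -0.79, whose named transcript is AK051102, lies at chr4:102275988-102276046 (mm9, plus strand) and had a spot SD of 0.33. Pde4a had probes at -0.27 (355 and 305 units) and -0.07 (70.5 and 70.0 units). Pde4c was very bright and almost equal, at 51464 and 52168 units (-0.04, spot SD 0.06).

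Pde4d differed by probe. Probes named for NM_011056 gave 106 and 94.5 units (-0.22) and 53.2 and 49.8 units (-0.15), the latter at chr13:110741493-110741552 (mm9, plus strand). A probe named for the transcript AK032648, at chr13:109910773-109910832, gave 19.2 units in CSE-WT and 40.4 in CSE-KO (1.02, spot SD 0.42). That difference passed 2-fold and was 2.43 times its spot SD. The sign for the gene therefore depends on which probes are used. The remaining probe, for AF038896, had the well-above-background flag on neither array.

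The AK032648 probe and 1 NM_011056 probe of Pde4d begin as follows (first 30 of 60 bases, in lower case with no part marked), so that the probe that differs can be placed in a transcript.
Pde4d, AK032648 probe: cacggcagccatttaccttaactgacaaaa
Pde4d, NM_011056 probe, 53.2 units in CSE-WT: gcggaagaggaaagccagcctgaaacttgc

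The other phosphodiesterases lay within 3 spot SDs of 0. Pde1c, a calcium- and calmodulin-stimulated enzyme, had probes at -0.21 (85.3 and 76.4 units, in a patch) and -0.25 (69.0 and 60.4 units, outside patches). The dim spots of that patch went the other way, with a median difference of 0.65. Pde3a was dim, at 25.2 and 20.7 units (-0.34, spot SD 0.51). Pde10a, which acts on both cyclic AMP and cyclic GMP, had probes at -0.09 (930.2 and 909 units, in a patch) and 0.04 (346 and 369 units). The dim spots of the Pde10a patch had a median difference of -1.91. The cyclic AMP-specific enzymes Pde7a (224 and 254 units, 0.13) and Pde8b (56.5 and 66.2 units, 0.17) were the higher ones.

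Of the protein kinase A genes, 4 of 6 were lower by small amounts, where 51.3% of all measured genes were lower. The regulatory subunit gene Prkar2b stood out by agreement of its probes. Prkar2b encodes the RII-beta subunit, known in fat, brain and endocrine cells. Its brightest probe gave 4907 units in CSE-WT and 3999 in CSE-KO (-0.35, spot SD 0.05). The others gave 546 and 466 units (-0.28, spot SD 0.08), and 321 and 256 units (-0.38, spot SD 0.10). All 3 probes were lower by more than 3 spot SDs, and over the alternatives the gene-level value ran from -0.35 to -0.29. They lie within chr12:32643366-32644751 (mm9, minus strand).

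Prkar1a, which encodes the widely expressed RI-alpha subunit, held the largest difference of any member probe. A probe named only for the transcript ENSMUST00000106676, at chr11:109522994-109523053 (mm9, plus strand), gave 33.8 units in CSE-WT and 226 in CSE-KO. The error model of the scanner software put 1 SD at 5.06 and 22.8 units. The difference was 2.68 (spot SD 0.18), or 6.42-fold, and among the 30845 measured probes 3, this one included, were at least as high. The probes for NM_021880 gave 26512.5 and 26324 units (-0.07, spot SD 0.06) at chr11:109529011-109529070 and 4132 and 3740.3 units (-0.20, spot SD 0.05) at chr11:109530521-109530580. The bright Prkar1a probes were thus slightly lower while the dim one was higher.

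The spot of that dim Prkar1a probe carried no outlier flag on either array. Of its 23 dim neighbouring spots, 7 exceeded 30 units in CSE-WT and 0 in CSE-KO, with medians of 8.45 and 3.14 units. The median of their own differences, relative to that of all dim spots, was -0.00067 log2 units, so the probe did not lie in a patch. The first 30 of 60 bases of the 3 probes are shown in lower case with no part marked, because the probes of this gene disagree.
Prkar1a, ENSMUST00000106676 probe: cctgtagaagcttaaccatttttgcccatg
Prkar1a, NM_021880 probe, 26512.5 units in CSE-WT: gcttcttgtctctttatactaaaagttgct
Prkar1a, NM_021880 probe, 4132 units in CSE-WT: aaatgtacgtatgtgaatgatgtagaacgc

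The other regulatory subunits were close to equal. Prkar1b, the RI-beta gene, gave 11738 and 11436 units (-0.09, spot SD 0.05), and its other probe 2182 and 2334 units (0.04). Prkar2a, the RII-alpha gene, gave 215 and 247 units (0.14, spot SD 0.10). Of the catalytic subunits, Prkaca gave 335 and 393 units (0.18, spot SD 0.09). Prkacb gave 52569.5 and 50902 units (-0.10, spot SD 0.06), with its other probe at 7469 and 6852 units (-0.18, spot SD 0.05). The catalytic genes therefore had opposite signs. The Prkaca value and that of the brighter Prkacb probe lay within 2 spot SDs of 0.

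The Epac genes, whose products exchange GTP on Rap without protein kinase A, showed no difference beyond 2 spot SDs. Rapgef3 (Epac1) gave 698 and 752 units (0.05, spot SD 0.08). Rapgef4 (Epac2, the form known for insulin granule exocytosis) gave 215 and 196 units (-0.19, spot SD 0.11). The Rapgef4 probe spans 10207 bases of chromosome 2 and so crosses at least 1 intron.

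The transcription factors and coactivators at the end of the pathway were within 2 spot SDs of 0 by their brightest probes, with 2 of 5 higher. Of all measured genes 48.7% were higher. Creb1 gave 135 and 156 units (0.15, spot SD 0.13) and 92.2 and 92.1 units (-0.06) with its other probe. Crem, which encodes activators and the ICER repressors, gave 2032 and 1944 units (-0.12, spot SD 0.06) with its brighter probe. Its other measured probe gave 1109 and 879.7 units (-0.39, spot SD 0.07). The Crem probes were both lower, and the second passed 3 spot SDs. Probes for the Crem transcripts ENSMUST00000149266 and NM_001110851 were not well above background on either array.

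The CRTC coactivators, which enter the nucleus when salt-inducible kinases are inhibited, were nearly equal. Crtc1 gave 2586 and 2659 units (-0.02, spot SD 0.06). Crtc2, the form best known in islets, gave 1304 and 1299 units (-0.06, spot SD 0.07), with its other probe at 141 and 174 units (0.24, spot SD 0.13). Crtc3 gave 1616 and 1786 units (0.09, spot SD 0.06) and 137 and 154 units (0.11) with its other probe.

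**Figure D3:**
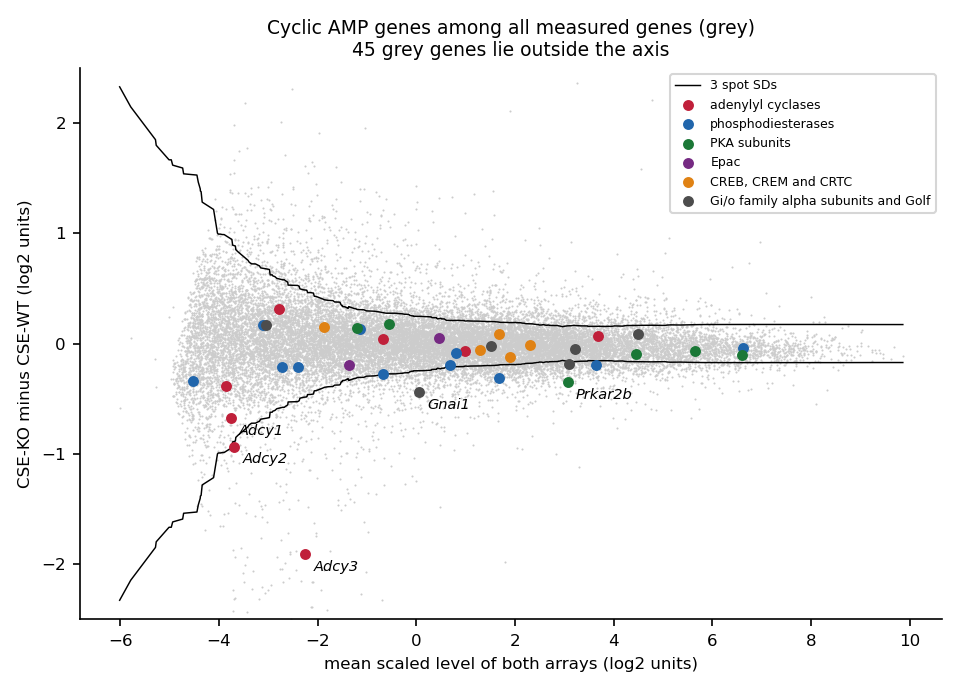
Difference CSE-KO minus CSE-WT against mean scaled level, both in log2 units, for all measured genes (grey) and the 38 measured cyclic AMP genes (coloured by role), with black lines at 3 spot SDs. Adcy2, Adcy3, Pde3b, Pde8a, Prkar2b, Gnai1 and Gnai3 lie on or below the lower line. No coloured gene lies above the upper one, and 45 grey genes lie outside the axis.

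Brightness set how precisely members could be compared. By the probe used, 20 members lay at or above the median level of measured genes and 18 below it. At or above that level 4 were higher and 16 lower, where 56.0% of all measured genes at or above it were lower, and the widest difference was that of Prkar2b (-0.35). In 29 of the 38 genes the sign held under all 11 processing alternatives that gave a value, 12 of them higher and 17 lower. The 9 others, all lower in the setting reported, were Adcy6, Pde4c, Pde4d, Pde10a, Prkar1a, Crtc1, Crtc2, Gnao1 and Gnaz.

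Other genes of the pathway were described from lists of receptors, effectors and targets, and none of the measured ones reached 2-fold by its brightest probe. Proteins that anchor or inhibit protein kinase A were lower in 13 of 15 measured genes (background 51.3%, median -0.12). Past 3 spot SDs 3 of these were lower (background 9.35%) and 0 higher (background 8.55%). They were the inhibitor genes Pkia (-0.36) and Pkig (-0.31, its other probe at 0.03) and the mitochondrial anchor gene Akap1 (-0.33, its other probe at 0.13), of which Pkig and Akap1 were named after their values had been seen. Akap5 (-0.33) was dim, with a spot SD of 0.53.

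Stimulatory receptors and Gs were higher in 8 of 14 measured genes (background 48.7%, median 0.04). Past 3 spot SDs 1 was higher (background 8.55%) and 2 were lower (background 9.35%). The incretin receptor gene Gipr was higher (0.39, spot SD 0.06). The lipid receptor gene Gpr119 (-0.71, spot SD 0.08) and Vipr1 (-0.33, its other probe at -0.09) were lower. Gnas, the gene of Gs itself, was at 0.01 by its brightest probe, while its 3 measured probes ran from -0.18 to 1.46, and it was named after its values had been seen. Inhibitory receptors were lower in 10 of 15 (background 51.3%, median -0.11). The galanin receptor gene Galr1 (-0.30) and the cannabinoid receptor gene Cnr1 (-0.45) were lower past 3 spot SDs (background 9.35%). Npy1r (0.95, spot SD 0.41) and Hcar2 (-0.90, spot SD 0.33) differed most and were dim. Other phosphodiesterases were lower in 6 of 10 (background 51.3%, median -0.02). Pde2a, the cyclic GMP-stimulated enzyme, was higher at 0.34 (spot SD 0.07). Its probe lay in a patch whose dim spots went the other way (median difference -1.29). Pde6h was at -0.40 (spot SD 0.46).

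Rap proteins and Epac effectors were lower in 6 of 9 genes (background 51.3%, median -0.09), with Rap1b (-0.27) past 3 spot SDs (background 9.35%). Rap2b (0.57, spot SD 0.32) and the active-zone gene Rims1 (0.29, spot SD 0.25) differed most. Partners of CREB and regulators of CRTC were lower in 8 of 13 (background 51.3%, median -0.06). Past 3 spot SDs 4 were lower (background 9.35%) and 1 was higher (background 8.55%). The 4 were the salt-inducible kinase genes Sik1 (-0.70, spot SD 0.15) and Sik2 (-0.40, its other probe at 0.09) and the calcineurin subunit genes Ppp3ca (-0.26) and Ppp3r1 (-0.23). Creb3l2 was the higher one (0.32). Vipr1, Galr1, Cnr1, Rap1b, Ppp3ca, Ppp3r1 and Creb3l2 were named after their values had been seen.

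Textbook CREB target genes went in both directions. Of 24 listed names 18 were measured, with 10 higher (background 48.7%) and 8 lower (background 51.3%) and a median of 0.02. Past 3 spot SDs (background 17.9% in either direction) 5 were higher and 6 lower, Sik1 counted in this list too. Of these, the following were named after their values had been seen. The higher ones included Inhba (0.55), Vgf (0.43), Fosb (0.34) and Per1 (0.23, its other probe at -0.09). The lower ones included Ppargc1a (-0.88), Nr4a1 (-0.69), Fos (-0.62) and Nr4a2 (-0.35, in a patch). Rgs2, a regulator of G-protein signalling, was higher at 0.92 with probes at 0.92 and 0.70. Egr1, an immediate early transcription factor gene, was lower at -0.89. Areg exceeded background in CSE-KO alone, where it was dim (scaled level -4.95 log2 units). Its lower bound was 2.69-fold higher there, a value without a spot SD.

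**Figure D4:**
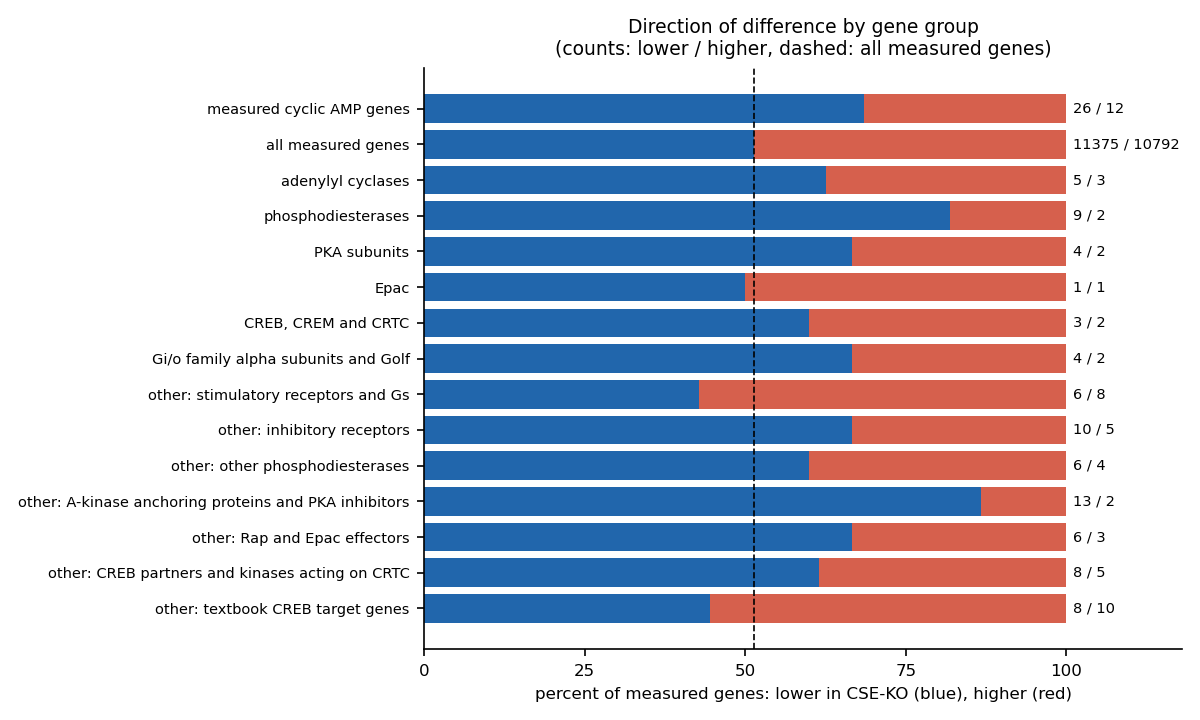
Share of measured genes lower (blue) and higher (red) in CSE-KO for the cyclic AMP genes, their role groups and other genes of the pathway, in percent, with counts lower and higher at the right and a dashed line at the 51.3% of all measured genes that were lower. Phosphodiesterases (9 of 11) and the anchoring and inhibitor group (13 of 15) have the longest blue bars.

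Markers of the cell types in the samples also differed. For the counts by cell type, 48.7% of all measured genes were higher and 51.3% lower. Beta-cell markers were higher in 4 of 10, with summed signals of 1451760 units in CSE-WT and 1399440 in CSE-KO. Ins1 (-0.12) and Ins2 (-0.06) were close to equal. Alpha-cell markers were lower in 6 of 6 (median -0.50), with summed signals of 596800 and 549544 units, and included Gcg (-0.14) and Ttr (-0.24, in a patch). Delta- and PP-cell markers were lower in 4 of 5 (median -0.12), with Sst at -0.05 and Ppy at -0.12.

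All 6 measured markers of stellate cells and fibroblasts were higher (median 0.64, summed signals 2181 and 2994 units), including Col1a2 (0.44), Col3a1 (1.04) and Acta2 (0.08), and Lum exceeded background in CSE-KO alone. Macrophage markers had a median of 0.40, with Itgam at 0.40 and Csf1r at 0.06. Neuronal and glial markers were higher in 6 of 9 (median 0.24), with Snap25 at 0.41 and Th at 0.24. Erythroid markers were lower in 5 of 5 (median -0.54), with Hba-a1 at -0.46 and Hba-a2 at -0.41, genes whose probes can bind near-identical copies.

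Acinar markers were higher in 7 of 12 (median 0.02), with Amy2a5 at -0.42 and Ctrb1 at 0.46, and Ptf1a, in a patch, at -2.24. Ductal markers were higher in 3 of 4 measured, with Krt7 at -0.26 and Spp1 at 0.53. Endothelial markers were higher in 5 of 7 (median 0.09), with Kdr at -0.02 and Plvap at 0.09. The part of these cell types in the differences of the cyclic AMP genes was not tested.

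Promoter sequence was compared as a feature that the choice of genes did not use. RefSeq promoter windows on GRCm38.p6, from 250 bases before to 50 after a start site, were found for 29 of the 39 genes. The full cyclic AMP response element TGACGTCA, searched on both strands, was in windows of 1 of these 29 genes (3.45%) and of 2.03% of all 27025 genes with a window. The shorter TGACG, which the full element also contains, was in 15 of 57 member windows (26.3%) against 20.8% of all 32851 windows. By gene it was in windows of 13 of 29 (44.8%) against 23.0%, but members had more windows per gene on average (57 windows for 29 genes against 32851 for 27025). A match is a description of the letters and not a site of binding.

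The single gene with the full element was Prkar1a, 1 of the 8 members whose probes had mixed signs. It is shown here with the element in capitals, 5′ to 3′ on the plus strand, in the window chr11:109650699-109650998 (GRCm38.p6). The element starts 49 bases before the start site of this window. No probe on the arrays reads the promoter, so the signals do not bear on its use.
Prkar1a promoter: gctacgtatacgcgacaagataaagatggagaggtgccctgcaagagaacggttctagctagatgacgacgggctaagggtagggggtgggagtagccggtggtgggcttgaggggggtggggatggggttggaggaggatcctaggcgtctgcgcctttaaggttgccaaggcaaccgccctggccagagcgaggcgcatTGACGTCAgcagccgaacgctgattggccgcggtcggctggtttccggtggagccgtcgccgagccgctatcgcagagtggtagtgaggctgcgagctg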

How the data were processed

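Transcript levels were measured on 2 Agilent 1-colour arrays, 1 per genotype. Per the file headers, the deposited intensity of each spot came from Agilent Feature Extraction 10.7.1.1 with spatial detrending and without subtraction of a local background, whereas the submitters' processing notes give version 9.5.1.1. A second table of intensities was deposited by the authors, and its exact steps are not given in the sources used here. Its columns correlated with their own arrays at r = 0.9999 over probes, both had a median of 37.7 units, and it served as an alternative.

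Spots flagged as outliers were left out, the log2 of the processed signal was averaged over spots of a probe, and each array was scaled by subtracting its own 75th percentile of gene probes. A gene took its measured probe of highest mean level, under the name in the files. The spot SD came from 379 probes printed about 10 times. A patch probe had a median difference of at least 0.5 log2 units over the dim spots (under 30 units on at least 1 array) of a window of 7 by 7 spots around it. A gene above background on 1 array only has a lower bound, from its bright level against the higher of the other array's lowest detected level and the probe's own. Quantile and normexp (offset 50) alternatives used limma 3.58.1 and Python 3.11.15. The steps were tested on simulated data. The cyclic AMP genes, pathway lists and markers were chosen with earlier results of these data known. The genes named were all members, the 2 pathway genes per list with the largest difference, any past 2-fold, and the 2 brightest markers per cell type. Probe coordinates are those of the files (mm9). The sequence of 1 Pde4d probe is not reported here.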

Additional observations from a re-analysis of the deposited data

How the results depend on the processing

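No paired analysis was possible because each genotype had 1 array. The median of the cyclic AMP genes was below 0 under all 11 alternatives, from -0.09 to -0.02. Restricting to genes at or above the median level left 4 higher, 16 lower, 0 at least 2-fold lower and 4 lower past 3 spot SDs. Of all measured genes at or above that level 13.4% were lower past 3 spot SDs. Leaving out patch probes, by the 7 by 7 window or by a window of 5 by 5 spots chosen after seeing the data, gave 0 at least 2-fold lower, because Adcy3 lost its only probe. Without scaling 4 were lower past 3 spot SDs (5.66% of all measured genes). Under normexp or the mean of probes 1 was higher past 3 spot SDs (7.52% and 8.72% of all measured genes). No scaling also moved the share of all measured genes that were lower from 51.3% to 39.4%. Over all measured genes, the counts at least 2-fold higher and lower were 38 and 97 under normexp, whose offset of 50 units narrows differences between dim spots. They were 1128 and 1437 without a filter on dim probes, and 14 and 3 at or above the median level. With the smaller patch window 97 were lower. Of the single-gene values under the alternatives, 28 moved by more than 1 spot SD. A reversal of a difference past 2-fold was counted 0 times, but only Adcy3 had such a difference in the setting reported. The sign of 9 members changed under at least 1 alternative. The widest move was that of Prkar1a, from -0.07 to 0.81 with the mean of its probes. Dim probes had spot SDs up to 0.51, and the spread between animals was not measured.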
